A study of Mus musculus with 45 samples.

Results

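The genes described here are the constitutive proteasome subunits and the factors that assemble, cap or inhibit the proteasome, in cultured mouse splenic B cells. They were chosen by symbol: protein-coding rows whose symbol begins with Psma to Psmg and a digit, leaving out the immunoproteasome genes Psmb8, Psmb9 and Psmb10. The rule found 47 of the 28196 genes in the deposited tables, of which 17043 are protein-coding. By role they are the alpha ring, the structural and catalytic beta subunits, the ATPases and non-ATPases of the cap, the assembly chaperones, and the activators with the inhibitor Psmf1. Psmc3ip matched by symbol although its product is a meiotic recombination factor and not a proteasome subunit. Psma8 (a testis form) lay between 3.04 and 4.69 on the deposited log2 scale over the 45 libraries and was at the floor of 3.04, a count of 0, in 12 of them. Psmb11 (a thymus form) lay between 3.04 and 4.17, with 14 libraries at the floor, and did not pass the filter on low values, so it entered no fit that used the filter.

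The proteasome is the main protease for proteins tagged with ubiquitin. Its barrel, the 20S core, stacks alpha rings, which gate the entrance, on beta rings, which carry the active sites in Psmb5, Psmb6 and Psmb7. The 19S cap binds ubiquitin chains, unfolds substrates with its ATPases and feeds them into the core, while other activators open the core without ubiquitin. Plasma cells secrete antibody in large amounts and are known for their sensitivity to proteasome inhibitors. In immune cells the inducible Psmb8, Psmb9 and Psmb10 can replace the constitutive active-site subunits.

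RNA was sequenced in 15 groups of 3 libraries. B2 cells from the spleens of wild type C57BL/6 males aged 7 weeks were taken before culture (day 0) and at days 4, 7 and 10 of 2 cultures. In the TLR culture the cells were stimulated with LPS, and in the BCR culture with anti-IgM/IgG F(ab')2, each on CD40L-expressing mouse L cells, a fibroblast line used as feeders, with IL-4 and IL-5. Feeders were removed at day 2, and IL-6 and APRIL were in the medium from day 4. Another culture, with LPS, was sampled at days 4 and 7 from wild type females aged 9 weeks; what else it held is not given in the sources used here. Prdm1Δex1A mice (dEx1A below), C57BL/6 females aged 9 weeks by their labels whose genotype is named for exon 1A of Prdm1, were sampled at days 4 and 7 of all 3 cultures. The genotype comparisons in the TLR and BCR cultures therefore set females of 9 weeks against males of 7 weeks, and genotype, sex and age cannot be told apart there, although the protocol describes matching for both. Only the LPS comparisons are matched in the labels. The labels do not say whether replicates came from separate animals, so p-values measure the spread between these libraries, which may be technical. In bulk RNA, fewer cells of a type and less RNA per cell cannot be told apart.

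The 45 libraries held 15.1 to 35.6 M reads (M, mega), with a median of 23.2 M, recovered from the deposited values. Prdm1, which encodes Blimp-1, was lower in all 3 dEx1A libraries than in all 3 wild type ones in the LPS culture at day 4 (9.60 to 10.01 against 12.34 to 12.68) and day 7 (11.10 to 11.32 against 12.40 to 12.77). The same held in TLR at day 7 (11.72 to 11.90 against 13.04 to 13.43), BCR at day 4 (7.27 to 8.82 against 9.32 to 10.23) and BCR at day 7 (10.02 to 10.80 against 12.33 to 12.56). In TLR at day 4 the groups overlapped, at 9.71 to 10.61 against 9.66 to 9.86. The value covers the whole gene, so it does not measure the deleted exon apart. The 15 libraries under 20 M reads, which are the wild type LPS libraries and all dEx1A day 7 libraries, read GC-rich genes higher against GC-poor genes (0.71 to 1.65 log2) than the 30 deeper ones (-1.85 to 0.57). That division was made after the values were seen. For comparisons that cross it, counts and some of the leading values are given below also after a correction for GC content and length.

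Promoters are shown for 4 members on which the results below turn: the active-site genes Psmb5 and Psmb6, the cap scaffold Psmd1 and the activator Psme4. They were picked after the matches and values were seen. Each is the 250 bases before and 50 after the RefSeq start site on GRCm38.p6, in the direction of the gene. Capitals mark a match, on either strand, to TGACNNNGC, the core of the antioxidant response element bound by the factors Nfe2l1 and Nfe2l2.
Psmb5, chr14:54617946-54618245, minus strand: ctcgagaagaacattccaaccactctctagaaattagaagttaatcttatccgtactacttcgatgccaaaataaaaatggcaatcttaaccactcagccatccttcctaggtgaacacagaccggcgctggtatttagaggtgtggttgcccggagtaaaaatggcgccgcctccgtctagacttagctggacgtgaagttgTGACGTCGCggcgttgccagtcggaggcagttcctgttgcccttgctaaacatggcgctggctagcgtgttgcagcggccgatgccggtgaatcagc
Psmb6, chr11:70525107-70525406, plus strand: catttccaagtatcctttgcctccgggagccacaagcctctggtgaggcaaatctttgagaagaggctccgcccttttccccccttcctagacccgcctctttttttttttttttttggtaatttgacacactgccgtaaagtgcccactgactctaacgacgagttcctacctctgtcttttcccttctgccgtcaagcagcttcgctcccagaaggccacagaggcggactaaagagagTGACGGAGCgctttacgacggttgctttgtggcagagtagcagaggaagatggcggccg
Psmd1, chr1:86064369-86064668, plus strand: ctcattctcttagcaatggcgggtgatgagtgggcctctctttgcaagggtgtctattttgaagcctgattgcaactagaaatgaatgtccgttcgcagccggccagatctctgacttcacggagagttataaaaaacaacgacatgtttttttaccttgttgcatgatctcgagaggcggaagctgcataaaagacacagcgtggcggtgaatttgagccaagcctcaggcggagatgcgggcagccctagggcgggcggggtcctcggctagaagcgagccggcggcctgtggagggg
Psme4, chr11:30771525-30771824, plus strand: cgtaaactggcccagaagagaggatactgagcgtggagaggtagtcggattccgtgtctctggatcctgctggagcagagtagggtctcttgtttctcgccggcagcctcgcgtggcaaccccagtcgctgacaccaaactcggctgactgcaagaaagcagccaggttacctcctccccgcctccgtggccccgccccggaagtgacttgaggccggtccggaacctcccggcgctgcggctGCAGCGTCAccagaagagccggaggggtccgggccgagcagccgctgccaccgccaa

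RefSeq promoters were matched for 39 of the 47 members. TGACNNNGC was found in 6 of the 39 (15.4%), against 12.4% of all 32851 promoters of the same length; counted by gene, 3781 of 27025 genes had it in a promoter. The 6 are Psmb5, Psmb6, Psmc6, Psmd9, Psmd12 and Psme4. The match starts 47 bases before the start site in Psmb5 and 9 bases before it in Psmb6, on the strand of the gene, and 7 bases before it on the other strand in Psme4. The CCAAT box, searched on both strands, was found in 14 of the 39 (35.9%) against 37.4% of all promoters and 41.1% of genes. A match describes the letters in the window only, and the members' shares lay near those of all promoters and genes. The match is found both in Psmb5 and in Psme4, whose values moved in opposite directions in the dEx1A day 7 comparisons below. Any part of the match in those values was not tested.

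Day 0 B cells already expressed nearly the whole set. Among the 14 core subunits, the mean level per kilobase of transcript ran from 340.3 normalised reads for Psmb5 to 1674 for Psma6, a 4.92-fold range. The 17 cap subunits lay between 361.7 (Psmd3) and 1114 (Psmd8) normalised reads per kilobase. Assembly chaperones were lower per kilobase, from 64.5 (Psmg3) to 279.6 (Psmg2). Psmb5 was also the lowest core subunit per kilobase in the wild type TLR and BCR groups at days 4, 7 and 10, at 780.8 and 933.3 on day 4. In wild type LPS cells the lowest was Psma3, at 1137 on day 4 and 958.2 on day 7. Psma3 was also lowest in the dEx1A day 7 groups of all 3 cultures, and Psmb5 in dEx1A TLR and BCR at day 4. The groups with Psma3 lowest are thus those under 20 M reads. These levels are uncorrected for GC content, which is 57.0% in Psmb5 and 41.3% in Psma3.

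**Figure D1:**
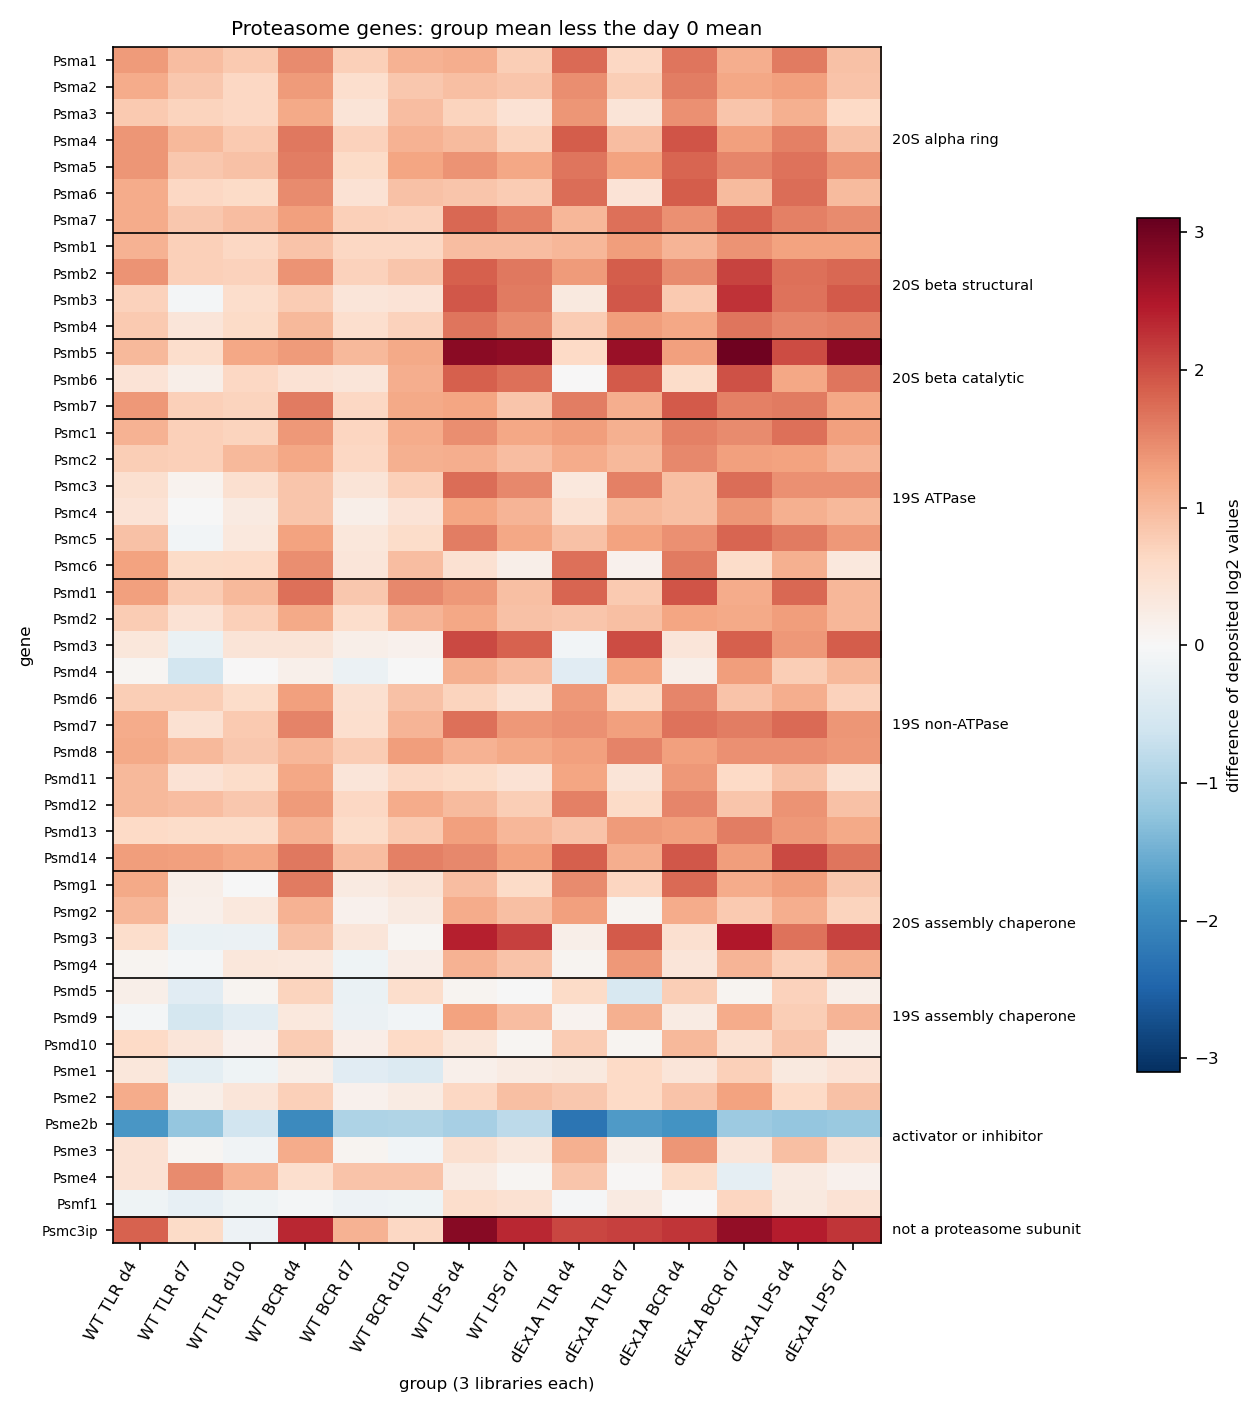
Group mean of each member minus its day 0 mean (log2, colour scale), with members in rows ordered by role and the groups in columns. Most rows are higher at day 4, Psme2b is lower in every cultured group, and Psme4 is highest in wild type TLR at day 7.

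Between day 0 and day 4 most core and cap genes rose in both feeder cultures. In TLR, 31 of 45 tested members were higher and 1 was lower by limma at adjusted p below 0.05, where 48.3% of all 19497 tested genes were called and 24.9% were higher. The median difference was 0.91 log2 over members and 0.01 over all genes. In BCR, 34 were higher and 1 lower, where 50.6% of all genes were called and 26.1% higher, with a member median of 1.16. The 2 comparisons share their day 0 libraries. All 7 alpha ring genes rose in both, by 0.81 (Psma3) to 1.37 (Psma5) in TLR and by 1.18 (Psma3) to 1.64 (Psma4) in BCR. Of the 11 non-ATPase cap genes 9 rose in each, and Psmd3 and Psmd4 did not pass, at 0.34 and 0.05 in TLR. Of the 6 ATPases, 4 rose in TLR (Psmc3 and Psmc4 did not pass, at 0.51 and 0.43) and 6 in BCR.

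Psma5, an alpha ring subunit, read 9.82, 10.06 and 10.06 at day 0 and 11.38, 11.30 and 11.38 in TLR at day 4. All 3 cultured libraries lay above all 3 day 0 libraries, with a difference of 1.37 ± 0.14 (SE; limma adjusted p = 2.58e-07). The structural beta subunit Psmb2 went from 9.33, 9.46 and 9.65 to 10.98, 11.17 and 10.48 in TLR, a difference of 1.40 ± 0.23 (limma adjusted p = 6.21e-05). Replicate 3 in TLR was the lowest of the cultured ones and still above day 0. In BCR at day 4, the alpha subunit Psma4 read 12.37, 11.92 and 12.54 against 10.52, 10.76 and 10.63 at day 0, a difference of 1.64 ± 0.21 (limma adjusted p = 3.08e-06). Psmd1, the large scaffold of the cap whose promoter is printed above without a match, read 12.33, 12.10 and 12.34 in BCR at day 4 against 10.46, 10.51 and 10.66 at day 0. Its groups did not overlap, and the difference was 1.71 ± 0.17 (limma adjusted p = 1.31e-07).

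Psmc3ip, which is no subunit, showed the largest rise of the set in both cultures. It read 5.81, 5.85 and 6.19 at day 0, 7.81, 7.89 and 7.61 in TLR and 8.23, 8.41 and 8.24 in BCR at day 4. The differences were 1.82 ± 0.25 (limma adjusted p = 8.51e-06) and 2.34 ± 0.25 (limma adjusted p = 3.57e-07), with no overlap. Psme2b went the other way, from 8.60, 8.69 and 8.73 at day 0 to 6.97, 7.19 and 6.43 in TLR and 6.99, 6.71 and 6.43 in BCR. It fell by 1.81 ± 0.24 on the log2 scale in TLR (limma adjusted p = 5.41e-06) and by 1.96 ± 0.24 in BCR (limma adjusted p = 1.8e-06). Psme2b is a close copy of Psme2, so reads could be split between them, and its level is uncertain; Psme2 itself rose by 1.16 and 0.74.

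Markers of feeder cells moved with the same day 4 comparisons. Of 12 fibroblast markers 8 were tested, and 7 rose in TLR and 8 in BCR. Their summed level was 37.4 to 117 normalised reads at day 0, 1607 to 3393 in TLR and 2626 to 4898 in BCR at day 4; Dcn was at the floor in both day 4 groups. Their part in the rise of the proteasome genes was not tested. In wild type LPS cells at day 4, fibroblast markers summed to 7.55 to 16.0 with Col1a1 and Col1a2 at the floor in all 3 libraries. There, 41 of 46 tested members were higher than at day 0 and 1 was lower by limma, where 58% of 20331 genes were called and 27.3% higher, with a member median of 1.13. Those LPS libraries differ from the day 0 libraries in sex, age and depth. All 7 alpha, 4 structural beta, 3 catalytic, 6 ATPase and 11 non-ATPase genes rose in LPS at day 4. After correction for GC content and length, 39 members were higher and 3 lower, where 67% of all genes were called. The median of the 24 GC-rich members went from 1.43 to 0.94 with that correction, and that of the 22 GC-poor members from 0.95 to 0.78. From day 4 to day 7 in LPS, 2 of 46 members were lower by limma, where 8.4% of all genes were called and 4.75% higher: Psmd1, from 11.89, 11.83 and 11.95 to 11.56, 11.37 and 11.48, and Psmb7, from 11.33, 11.27 and 11.49 to 11.01, 10.92 and 11.03. Neither pair of groups overlapped, and the differences were -0.42 and -0.38. The count was 1 without LPS day 4 replicate 2 or 3 or any of the 3 LPS day 7 replicates, and Psmb7 lost its call without any 1 of the 6 libraries.

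From day 4 to day 7 the set fell back in part. In BCR, 30 of 45 members were lower and 1 was higher, where 30.5% of all genes were called and 15.2% lower, with a member median of -0.67. In TLR, 16 were lower and 1 higher, where 36.3% were called, 17.7% higher and 18.6% lower, with a median of -0.42; without wild type TLR day 7 replicate 3 the count called was 11. In TLR the share of members called lay near that of all genes. All 7 alpha ring genes fell in BCR, by between 0.55 (Psma7) and 1.02 (Psma6), against 1 of 7 (Psma5, by 0.55) in TLR. Of 8 fibroblast markers tested, 6 fell in TLR and 4 in BCR, and 0 rose. All 12 listed summed to 1607 to 3393 normalised reads in TLR at day 4 and 81.0 to 209 at day 7. In BCR these sums were 2626 to 4898 and 482 to 574. Of 14 macrophage markers 5 rose in TLR and 8 in BCR, and all 6 plasma cell markers rose in both. Their part in the fall of the proteasome genes was not tested.

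The 20S assembly chaperones Psmg1 and Psmg2, which pair alpha subunits into rings, were among those that fell in both cultures. Psmg1 went from 9.41, 9.10 and 9.25 in BCR at day 4 to 8.06, 8.14 and 7.58 at day 7, a difference of -1.33 ± 0.18 (limma adjusted p = 1.3e-05). In TLR it went from 8.94, 8.79 and 8.75 to 7.78, 7.92 and 7.77, a difference of -1.003 ± 0.18 (limma adjusted p = 0.000196), and neither pair of groups overlapped. Psmc5, a cap ATPase, went from 10.84, 11.01 and 10.40 to 9.62, 9.90 and 9.75 in TLR and fell by 0.99 ± 0.20 (limma adjusted p = 0.000837). All its day 7 libraries lay below all day 4 ones. Psmc3ip fell by 1.23 ± 0.25 in TLR, to 6.46, 6.50 and 6.67 (limma adjusted p = 0.000789), and by 1.26 ± 0.25 in BCR, to 6.93, 7.21 and 6.97 (limma adjusted p = 0.000766). In BCR, Psme2b rose by 1.01 ± 0.24 to 7.52, 7.67 and 7.97, above all its day 4 libraries (limma adjusted p = 0.00319).

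From day 7 to day 10 few members moved. In TLR none of 45 was called by limma, where 8.2% of all genes were and 3.51% were higher; 6 had an unadjusted p below 0.05, and voom on the recovered reads also called 0. In BCR, 9 were higher and 0 lower, where 16.7% of all genes were called, 10.8% higher and 5.91% lower. Psma5 went from 10.70, 10.64 and 10.41 to 11.36, 11.33 and 10.90 (0.61 ± 0.14, limma adjusted p = 0.00623). Psmd1 went from 11.54, 11.45 and 11.13 to 12.20, 12.26 and 11.66 (0.67 ± 0.17, limma adjusted p = 0.011). Psmd5, a chaperone of the cap base, went from 9.79, 9.71 and 9.23 to 10.25, 10.56 and 10.12 (0.73 ± 0.18, limma adjusted p = 0.00883). For all 3 genes the day 10 libraries lay above the day 7 ones. In the same step 13 of 14 macrophage markers rose, and their summed level was 402859, 376887 and 51700 normalised reads in the BCR day 10 libraries against 5503 to 12520 at day 7. Without day 10 replicates 1 and 2, the libraries with the highest sums, 0 members were called. The count was 3 without BCR day 10 replicate 1, replicate 2 or BCR day 7 replicate 3, and 5 without BCR day 7 replicate 2. With values centred on the library median it was 0, and scaled to the library total it was 0 higher and 3 lower.

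Set against day 0, 25 of 45 members were higher and 1 lower in TLR at day 10, where 46% of all genes were called and 22.9% higher, with a member median of 0.59. In BCR 29 were higher and 2 lower, where 52.4% were called and 29.5% higher, with a median of 0.74; without BCR day 10 replicates 1 and 2, 19 were higher and 0 lower. Over the same comparisons 8 of 14 macrophage markers were higher in TLR and 12 of 14 in BCR. In the TLR day 10 libraries these markers summed to 9967, 122890 and 19240 normalised reads against 3106 to 4012 at day 0, and their part in these differences was not tested. In both, all 7 alpha ring genes and 9 of 11 non-ATPase cap genes were higher, and no 20S assembly chaperone passed. This direction depended on the scaling. Scaled to the library total, 0 members were higher and 38 lower in TLR, with a member median of -0.87 where that of all genes was -1.48. In BCR 2 were then higher and 8 lower, with medians of -0.10 and -0.78. Immunoglobulin transcripts took 58.7 to 66.5% of reads in TLR at day 10 and 1.94 to 2.01% at day 0. Centred on the library median, 16 were higher and 2 lower in TLR, and 14 and 4 in BCR, where 44.5% and 54.0% of all genes were called.

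**Figure D2:**
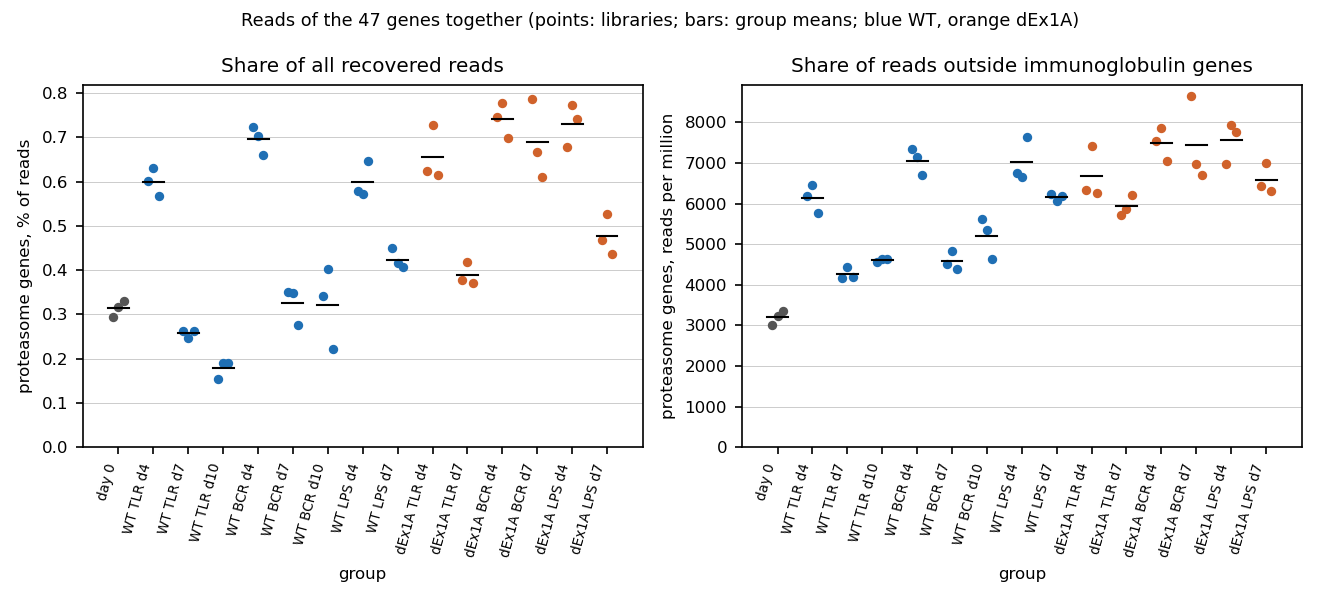
Reads of all members per library, as a percent of all reads and in reads per M reads (RPM) outside the immunoglobulin genes; points are libraries. The share of all reads lies below the day 0 range in wild type TLR at days 7 and 10, while the share outside immunoglobulin genes stays above it.

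As a share of all reads, the members together took 0.29 to 0.33% at day 0, 0.57 to 0.63% in TLR and 0.66 to 0.72% in BCR at day 4, and 0.15 to 0.19% in TLR at day 10. Among reads outside the immunoglobulin genes they took 3001 to 3364 per M reads (RPM) at day 0, 5775 to 6466 in TLR at day 4, 4174 to 4444 at day 7 and 4565 to 4635 at day 10. By the first measure TLR day 10 libraries lay below all day 0 libraries, and by the second above them. In BCR at day 10 the second measure was 4639 to 5633, and in dEx1A BCR cells at day 7, which held the highest library, 6701 to 8653.

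Few members were called between the TLR and BCR cultures. At day 4, 2 of 45 members were lower in TLR by limma, where 7.57% of all genes were called and 4.3% higher. The member median was -0.27, with 5 of 45 above 0. The 2 called were the nuclear activator Psme3 (-0.70) and the ATPase Psmc2 (-0.44). Psme3 read 11.79, 11.82 and 12.01 in TLR against 12.62, 12.45 and 12.65 in BCR. The count was 1 without TLR day 4 replicate 1, BCR day 4 replicate 1 or BCR day 4 replicate 3. After correction for GC content and length 1 was higher and 14 were lower, where 15.5% of all genes were called. At day 7 none was called, where 6.27% of genes were and 3.77% were higher; 2 had an unadjusted p below 0.05, and voom called 0. At day 10 only Psmc3ip was called (-0.80), where 14.4% of genes were and 4.29% were higher. This count of 1 was 13, with 1 higher and 12 lower, without BCR day 10 replicate 3. It was 0 without TLR day 10 replicate 1, BCR day 10 replicate 1 or BCR day 10 replicate 2. Scaled to the library total, with every library kept, 35 were lower, where 52.8% of all genes were called. In the main fit 9 of 14 macrophage markers were lower in TLR at day 10 and 0 higher. They summed to 402859, 376887 and 51700 normalised reads in BCR day 10 replicates 1, 2 and 3. In TLR the sums were 9967, 122890 and 19240. Their part in these counts was not tested.

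The 3 active-site genes differed in how closely their libraries agreed. Their transcripts also differ in GC content, at 57.0% in Psmb5, 55.8% in Psmb6 and 48.7% in Psmb7. The difference between GC-rich and GC-poor genes was -0.26, 0.02 and -1.44 log2 in TLR day 4 replicates 1, 2 and 3, and -0.68, 0.08 and -1.42 in BCR, lowest in replicate 3 of both. Psmb7, the trypsin-like subunit, read 10.05, 10.22 and 10.14 at day 0, 11.49, 11.44 and 11.48 in TLR and 11.85, 11.63 and 11.76 in BCR at day 4. It rose by 1.33 ± 0.17 (limma adjusted p = 3.69e-06) and 1.61 ± 0.17 (limma adjusted p = 3.26e-07), with tight groups and no overlap. At day 7 it read 10.96, 10.86 and 10.81 in TLR and 10.88, 10.95 and 10.53 in BCR, a fall of 0.59 ± 0.17 (limma adjusted p = 0.0104) and of 0.96 ± 0.17 (limma adjusted p = 0.000272). At day 10 it read 10.46, 10.94 and 11.09 in TLR (-0.05, limma adjusted p = 0.906) and 11.49, 11.48 and 10.93 in BCR (0.51 ± 0.17, limma adjusted p = 0.0458). The BCR day 10 libraries overlapped those of day 7 for Psmb7, and of its 15 alternatives the call held only under the correction for GC content and length and without BCR day 10 replicate 3.

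Psmb5, the chymotrypsin-like subunit and the main target of proteasome inhibitors, read 8.12, 8.09 and 8.70 at day 0. At day 4 it read 9.62, 10.04 and 8.30 in TLR, which overlapped day 0 (1.02 ± 0.50, limma adjusted p = 0.0999), and 9.67, 10.33 and 8.86 in BCR, which did not (1.32 ± 0.50, limma adjusted p = 0.0339). Replicate 3 was the lowest in both cultures, and without TLR replicate 3 the difference was 1.53 (limma adjusted p = 0.0186). The BCR call was lost without day 0 replicate 1 or 2, or BCR day 4 replicate 1 or 2, with adjusted p of 0.0761 to 0.153. After correction for GC content and length the differences were 0.90 in TLR (limma adjusted p = 0.00055), which then passed, and 1.28 in BCR (limma adjusted p = 1.26e-05). At day 7 Psmb5 read 8.45, 9.27 and 8.81 in TLR and 8.59, 9.48 and 9.86 in BCR, and at day 10 it read 10.23, 9.22 and 9.09 and 10.30, 9.48 and 8.69. None of these later steps passed.

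Psmb6, the caspase-like subunit, read 9.41, 9.32 and 9.63 at day 0, 10.08, 10.45 and 9.13 in TLR and 9.93, 10.52 and 9.24 in BCR at day 4. Both day 4 groups overlapped day 0, at 0.43 ± 0.45 (limma adjusted p = 0.455) and 0.44 ± 0.45 (limma adjusted p = 0.439), and with the correction they were 0.20 and 0.29 (limma adjusted p = 0.411 and 0.213). It read 9.30, 10.09 and 9.50 at day 7 and 10.57, 10.19 and 9.54 at day 10 in TLR, and 9.17, 9.98 and 10.30 and 11.46, 10.67 and 9.58 in BCR. None of those steps passed. In wild type LPS cells all 3 were tight and high. Psmb5 read 11.05, 10.99 and 11.25 at day 4 and 11.00, 10.99 and 11.16 at day 7, and it had risen by 2.79 from day 0. With the correction that rise was 1.52 ± 0.16 (limma adjusted p = 9.52e-10), and those of Psmb6 and Psmb7 were 0.59 and 0.70.

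**Figure D3:**
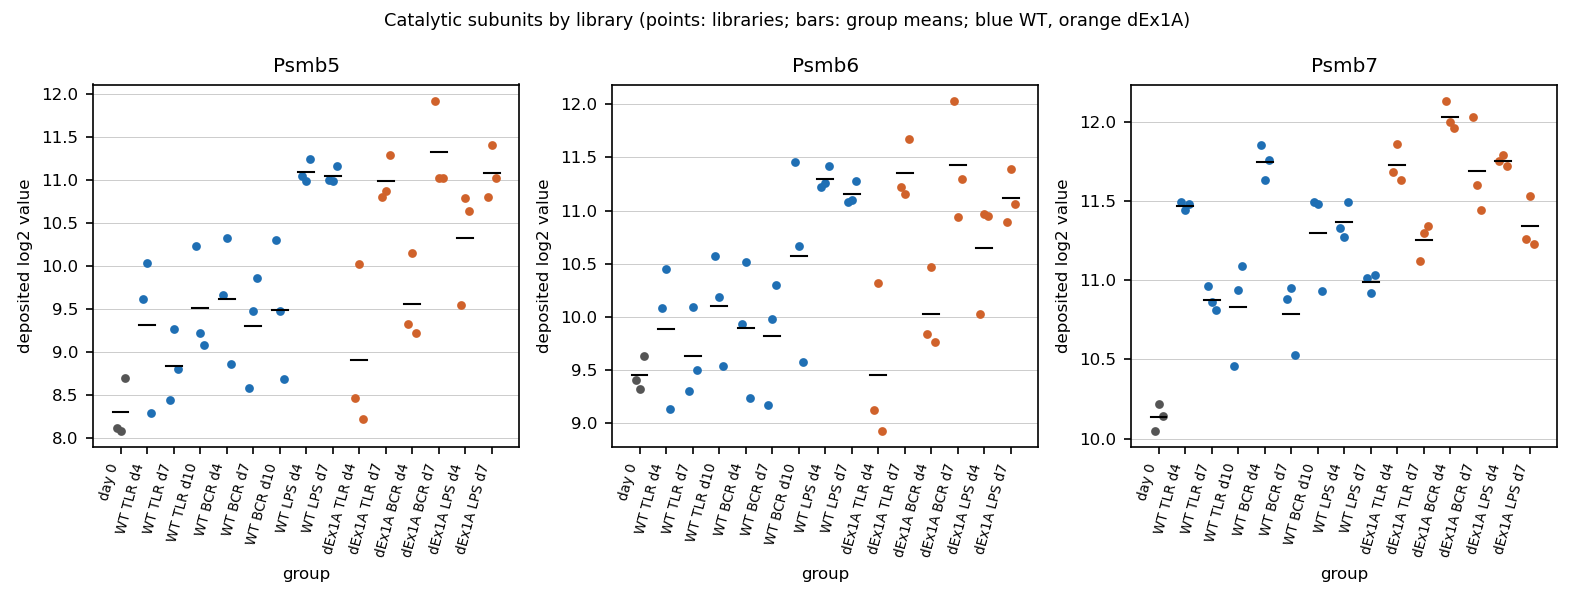
Deposited log2 value of Psmb5, Psmb6 and Psmb7 by group. Points are libraries and bars group means, blue for wild type and orange for dEx1A. Psmb7 libraries sit close together within groups, while Psmb5 libraries in wild type TLR at day 4 span 8.30 to 10.04.

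Against their inducible counterparts, the deposited value of Psmb5 minus that of Psmb8 was -2.89 ± 0.23 (SD, n = 3) at day 0, -2.03 ± 0.18 in TLR and -1.37 ± 0.08 in BCR at day 4. Psmb7 minus Psmb10 was 1.62 ± 0.38 at day 0 and 4.22 ± 1.18 in TLR at day 4. Psmb6 minus Psmb9 was -0.66 ± 0.14 at day 0, -0.88 ± 0.21 in TLR and 0.18 ± 0.16 in BCR at day 4. These are differences between genes on the deposited scale, uncorrected for length or GC content, and they do not compare the levels of the paired genes. No inducible subunit was called from day 0 to day 4 in TLR or BCR; after the correction Psmb10 was called lower in both (-1.29 and -1.35) and Psmb9 higher in TLR and lower in BCR (0.53 and -0.47). In wild type LPS cells at day 4 Psmb8, Psmb9 and Psmb10 rose by 1.19, 0.78 and 1.38. With the correction these were 0.45, 0.01 and 0.43, and the calls of Psmb9 and Psmb10 were lost (limma adjusted p = 0.962 and 0.227).

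The activators did not follow the core as a group. Psme1 and Psme2 form the interferon-inducible PA28 ring. Psme1 rose in TLR at day 4 (0.35) and did not pass in BCR (0.19), and Psme2 rose in both. Both then fell from day 4 to day 7, Psme2 by 0.97 and Psme1 by 0.64 in TLR. Psme3, the nuclear PA28 gamma, rose to 12.62, 12.45 and 12.65 in BCR at day 4 from 11.32, 11.45 and 11.47, and read 11.67, 11.55 and 11.27 at day 7. All 3 day 4 libraries lay above the rest, and the fall to day 7 was 1.08 ± 0.14 (limma adjusted p = 8.62e-06). Psmf1, the inhibitor PI31, was not called in any of the 6 steps.

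Psme4, which encodes PA200, was the only member called higher from day 4 to day 7 in TLR. It read 11.29, 11.47 and 11.21 at day 0 and 11.62, 11.49 and 12.18 in TLR at day 4. At day 7 it read 12.97, 12.58 and 12.81, above all day 4 libraries, a difference of 1.02 ± 0.25 (limma adjusted p = 0.00354). Scaled to the library total that difference was 0.14 (limma adjusted p = 0.624), where the median of all genes was -0.95. In BCR it read 11.90, 11.42 and 12.24 at day 4 and 12.43, 12.18 and 12.00 at day 7, which overlapped and did not pass (0.35). At day 10 Psme4 was higher than at day 0 in both cultures, by 1.08 in TLR and 0.88 in BCR.

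**Figure D4:**
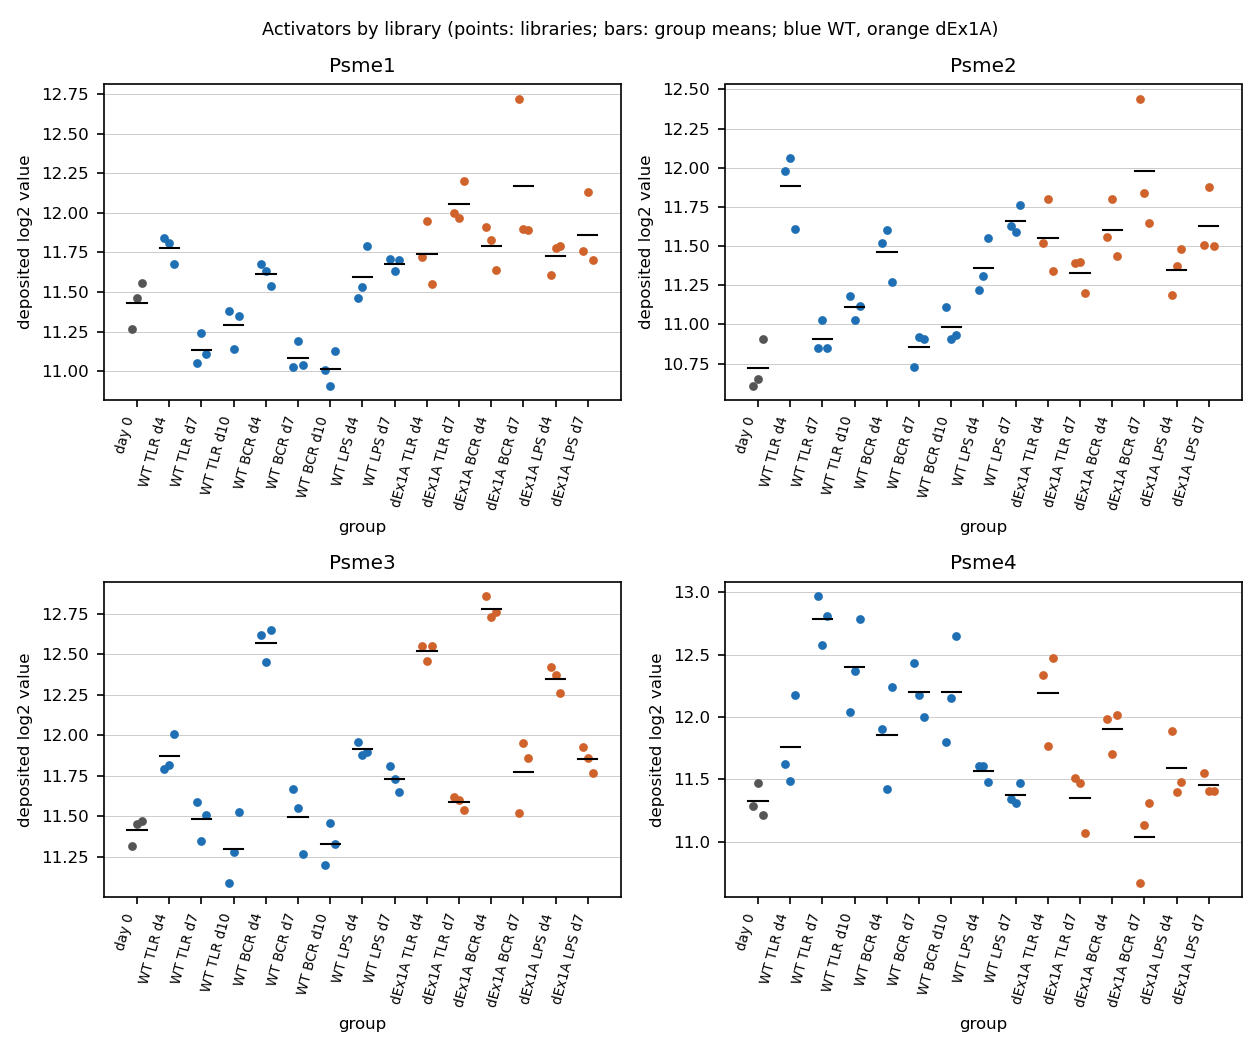
Deposited log2 value of the activators Psme1, Psme2, Psme3 and Psme4 by group; points are libraries and bars group means, blue for wild type and orange for dEx1A. Psme4 is highest in wild type TLR at day 7, at 12.58 to 12.97, and Psme3 is highest in the 2 BCR day 4 groups.

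Genes that act with the proteasome were taken from a list of 29, of which 28 were tested. From day 0 to day 4, 11 rose and 3 fell in TLR, where 48.3% of all genes were called, and 11 rose and 2 fell in BCR, where 50.6% were. These shares lie near those of all genes. The cap-bound thioredoxin Txnl1 rose by 1.64 and 1.88, the cap deubiquitinase Uchl5 by 1.39 and 1.94, the unfoldase Vcp by 1.20 and 1.43, and the core assembly factor Pomp by 1.11 and 1.39. The redox-responsive factor Nfe2l2 fell by 0.78 and 0.96. From day 4 to day 7 in TLR, 6 rose and 4 fell, where 36.3% of all genes were called, so the share lies near that of all genes. Those that rose include Ngly1 (1.58) and Ddi2 (1.05), which process the proteasome-gene factor Nfe2l1, while Uchl5 fell by 1.40. In BCR 2 rose (Ngly1 by 1.00 and Ddi2 by 0.31) and 8 fell, where 30.5% of all genes were called. Nfe2l1 itself was called in none of these steps.

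At day 4 of LPS, 14 of 46 tested members were higher in dEx1A and 0 lower by limma, where 24.4% of all genes were called and 12.6% higher. The count was 8 without wild type replicate 1 or 2 and 7 without dEx1A replicate 1. Psma6, an alpha ring subunit, read 12.60, 12.49 and 12.47 in dEx1A against 11.47, 11.54 and 11.90 in wild type (0.88 ± 0.17, limma adjusted p = 0.000175). Psmd5 read 10.55, 10.56 and 10.32 against 9.79, 9.76 and 10.03 (0.62 ± 0.12, limma adjusted p = 0.000373), and neither pair of groups overlapped. Psmc6, an ATPase with a GC-poor transcript, read 11.85, 11.61 and 11.45 against 10.93, 10.90 and 11.16 (0.64 ± 0.20, limma adjusted p = 0.0183), and after correction for GC content and length the difference was 0.05 (limma adjusted p = 0.771). With that correction 10 members were higher and 4 lower, where 28.1% of all genes were called. Psma6 and Psmd5 are also GC-poor members, at 45.8% and 45.3%, and both stayed called higher with the correction. Across the 46 members the Spearman correlation of the difference with GC percent was -0.78, and -0.12 with the correction. Uncorrected, the 24 GC-rich members had a median difference of -0.19 and the 22 GC-poor members 0.40. Psmb7 was higher (0.39 without the correction, limma adjusted p = 0.0178), and it stayed called higher with the correction. Psmb5 (9.55, 10.79 and 10.64 against 11.05, 10.99 and 11.25) and Psmb6 did not pass without the correction, at -0.77 and -0.65. Of 6 plasma cell markers 5 were lower in dEx1A in this comparison and 0 higher. They summed to 18100 to 35480 normalised reads against 115779 to 120276 in wild type. Immunoglobulin transcripts took 2.4 to 4.6% of reads against 14.1 to 15.5%. The libraries held 26.1 to 30.1 M reads against 15.5 to 19.4 M. The part of these in the differences of the proteasome genes was not tested.

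At day 7 of LPS, where the groups are alike in labelled sex, age and depth, none of 46 members was called by limma, where 7.08% of all genes were and 3.3% were higher. At an unadjusted p below 0.05 there were 3, and voom called 0. Psmb5 read 10.81, 11.41 and 11.03 in dEx1A and 11.00, 10.99 and 11.16 in wild type, and the difference was 0.03 ± 0.44 (SE). Members' differences ran from -0.33 (Psme2b) to 0.41 (Psmd14) over the 46 tested, with a median of 0.12. A call missed at this size does not show that the genotypes are alike. The shift in the genotype effect between those days was called for 0 members by limma, where 5.48% of genes were and 3.3% were called upward; 6 had an unadjusted p below 0.05, and voom called 0.

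In TLR at day 4, 9 of 46 members were higher in dEx1A and 0 lower, where 7.23% of all genes were called and 4.08% higher. Psme3 read 12.55, 12.46 and 12.55 against 11.79, 11.82 and 12.01 (0.65 ± 0.11, limma adjusted p = 0.000201). Psma6 read 12.56, 12.40 and 12.59 against 11.82, 11.78 and 12.20 (0.58 ± 0.17, limma adjusted p = 0.0263). The cap subunit Psmd6 read 11.43, 11.20 and 11.56 against 10.70, 10.71 and 11.06 (0.57 ± 0.16, limma adjusted p = 0.0202). All dEx1A libraries lay above all wild type libraries for the 3 genes, and each call was lost when only those groups were fitted. The count called was 2 without wild type replicate 1 or 2 or dEx1A replicate 3. It was 3 without dEx1A replicate 1 and 14 without wild type replicate 3. Across the 46 members the Spearman correlation of the difference with GC percent was -0.76, and -0.08 after correction for GC content and length. The difference between GC-rich and GC-poor genes was -1.85 to -0.37 log2 in the dEx1A libraries and -1.44 to 0.02 in wild type. With the correction 13 members were higher and 0 lower, where 12.4% of all genes were called. In BCR at day 4 none was called by limma, where 1.86% of genes were; 7 had an unadjusted p below 0.05, and voom called 0.

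At day 7 more members were called in the TLR and BCR cultures. In TLR, 28 of 46 members were higher in dEx1A and 3 lower, where 54.8% of all genes were called and 26.2% higher, with a member median of 0.45. In BCR 39 were higher and 1 lower, where 50.8% were called and 25.8% higher, with a median of 0.82. All 4 structural beta and all 3 catalytic genes were higher in both. Psmb5 read 10.81, 10.87 and 11.29 in dEx1A TLR cells against 8.45, 9.27 and 8.81 in wild type (2.15 ± 0.44, limma adjusted p = 0.000138), and 11.92, 11.03 and 11.02 against 8.59, 9.48 and 9.86 in BCR (2.01 ± 0.44, limma adjusted p = 0.000312). Every dEx1A library lay above every wild type library in both cultures. Psmb6 read 11.22, 11.16 and 11.67 in TLR and 12.03, 10.94 and 11.30 in BCR, higher than wild type by 1.72 ± 0.36 and 1.61 ± 0.36 (limma adjusted p = 0.00021 and 0.000491). Psmb7 was higher by less, 0.38 ± 0.12 in TLR and 0.90 ± 0.12 in BCR (limma adjusted p = 0.00941 and 4.1e-07).

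Psmd3, a cap lid subunit, read 11.55, 11.44 and 11.94 in dEx1A TLR cells against 8.94, 9.92 and 9.42 (2.22 ± 0.41, limma adjusted p = 5.19e-05). The core chaperone Psmg3 read 7.90, 7.97 and 8.33 against 5.42, 6.64 and 5.85 in TLR, and 9.20, 8.41 and 8.39 against 6.03, 6.65 and 7.00 in BCR. Its differences were 2.10 ± 0.46 and 2.11 ± 0.46 (limma adjusted p = 0.000335 and 0.000357), with no overlap. Psmb3, a structural subunit, read 12.26, 11.44 and 11.47 against 9.18, 10.07 and 10.32 in BCR (1.87 ± 0.38, limma adjusted p = 0.000142). Psme4 went the other way in both cultures. It read 11.51, 11.47 and 11.07 against 12.97, 12.58 and 12.81 in TLR (-1.44 ± 0.20, limma adjusted p = 9.9e-07), and 10.67, 11.13 and 11.31 against 12.43, 12.18 and 12.00 in BCR (-1.17 ± 0.20, limma adjusted p = 1.85e-05). Psme2b read 7.02, 6.95 and 6.77 against 7.12, 7.50 and 7.78 in TLR (-0.55, limma adjusted p = 0.0223), and the ATPase Psmc6 (-0.47, limma adjusted p = 0.0479) was also called lower there. After correction for GC content and length Psmc6 turned, to 0.52 (limma adjusted p = 0.000211).

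These day 7 differences followed the GC content of the members. Across the 46 members the Spearman correlation of the difference with GC percent was 0.89 in TLR and 0.82 in BCR, given as a description since the members share the same libraries. The 24 GC-rich members had a median difference of 1.09 in TLR and 1.17 in BCR, and the 22 GC-poor members -0.12 and 0.44. The compared libraries also differed in depth and in how they read GC-rich genes: the dEx1A TLR and BCR day 7 libraries held 16.4 to 19.6 M reads, the wild type ones 22.0 to 35.6 M. After correction for GC content and length the correlation was 0.17 and 0.03, and the medians were 0.45 and 0.35 in TLR and 0.58 and 0.48 in BCR. The corrected counts were 32 higher and 2 lower in TLR, where 54.5% of all genes were called, and 42 higher and 2 lower in BCR, where 56% were. Psmb5 then differed by 0.53 in TLR and 0.66 in BCR, Psme4 by -0.54 and -0.40, and Psmc3ip by 1.43 and 1.28. The corrected differences of Psmb6 were 0.26 and 0.31, those of Psmb7 0.35 and 0.57, and those of Psmg3 0.68 and 0.87. Psmd3, with the highest GC content of the members at 57.7%, and Psmb3, at 53.8%, are given above only without the correction.

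Plasma cell markers moved with the same day 7 comparisons. The 6 plasma cell markers summed to 360149 to 440427 normalised reads in dEx1A TLR cells against 1128371 to 1638707 in wild type, and 3 were called lower and 1 higher. In BCR they summed to 49480 to 90700 against 429028 to 575541, with 5 lower and 0 higher. Immunoglobulin transcripts took 4.19 to 8.96% of reads in dEx1A BCR cells against 22.1 to 37.2% in wild type; in TLR the ranges overlapped, at 28.8 to 40.3% against 37.3 to 44.4%. Of 14 macrophage markers 4 were higher and 2 lower in TLR, and 4 were higher in BCR, where they summed to 7137 to 57900 against 5503 to 12520. Their part in the differences of the proteasome genes was not tested.

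**Figure D5:**
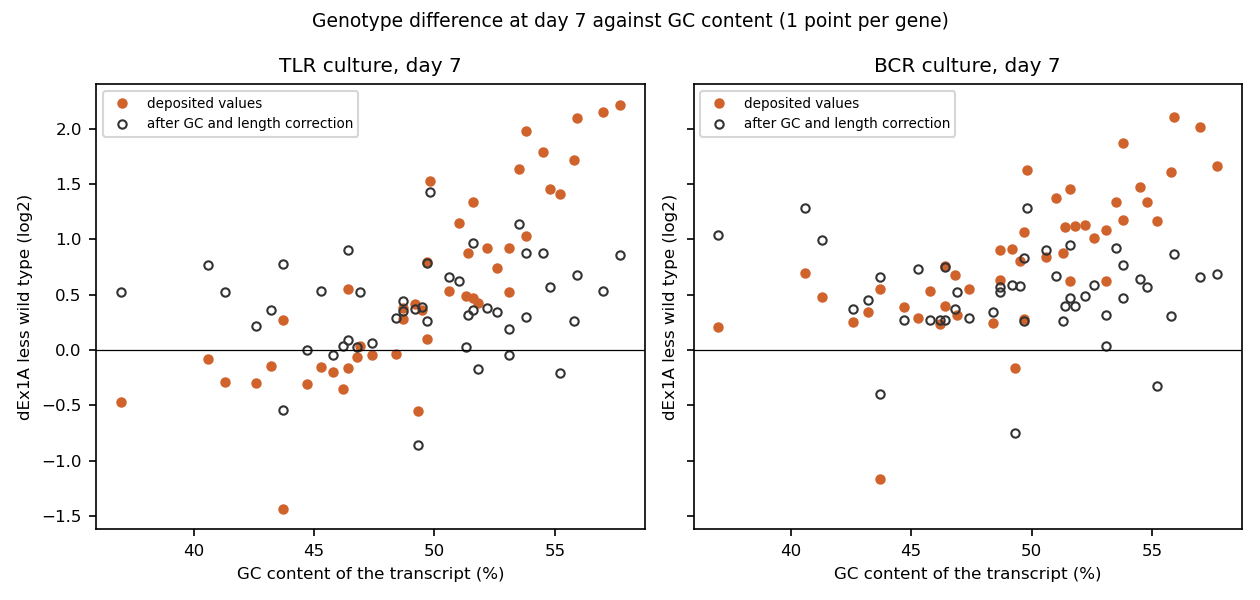
Difference dEx1A minus wild type at day 7 (log2) of each member against the GC percent of its transcript, before and after correction for GC content and length; points are members. Before the correction GC-rich members lie higher, at a median of 1.09 in TLR; after it the GC-rich and GC-poor medians are 0.45 and 0.35.

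The genotype difference itself changed between day 4 and day 7 for 32 members in TLR, 19 upward and 13 downward, where 49.4% of all genes were called, and for 28 in BCR, 27 upward and 1 downward, where 33.9% were. Centred on the library median, the TLR split was 15 upward and 16 downward, and scaled to the library total 27 and 2. Of all genes 52.4% and 45.8% were then called. After correction for GC content and length it was 17 and 4, where 41.9% of all genes were called. The corrected BCR split was 31 and 2, where 37.7% were. Psmb5 changed upward by 2.56 ± 0.62 in TLR and 2.07 ± 0.62 in BCR (limma adjusted p = 0.00111 and 0.0111), and Psme4 downward by 1.87 ± 0.28 and 1.21 ± 0.28 (limma adjusted p = 9.44e-06 and 0.00176). With the correction the Psmb5 change in TLR was 0.48 and no longer passed (limma adjusted p = 0.0877).

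The inducible subunits were also higher at day 7. Psmb8, Psmb9 and Psmb10 were higher in dEx1A by 2.18, 1.70 and 3.59 in TLR and by 1.61, 1.25 and 2.42 in BCR. After correction for GC content and length all 3 remained called, at 1.04, 0.75 and 2.28 in TLR and 0.70, 0.40 and 1.36 in BCR. Of the 28 pathway genes, 9 were higher and 11 lower in TLR, where 54.8% of all genes were called, and 10 higher and 5 lower in BCR, where 50.8% were. With the correction the counts were 10 and 6 in TLR and 11 and 3 in BCR. Adrm1, a ubiquitin receptor of the cap, was higher by 1.81 in TLR and 1.297 in BCR, and with the correction it did not pass (-0.16 and -0.08). The ubiquitin-binding Zfand5 was lower (-1.49 and -0.94) and with the correction did not pass either (-0.29 and 0.29). Ngly1 was lower (-1.14 and -1.06), also with the correction (-0.47 and -0.73). Fibroblast markers summed to 4966 to 7033 normalised reads in dEx1A BCR cells at day 7 against 482 to 574 in wild type. In TLR they summed to 635 to 716 against 81.0 to 209. Of the 9 tested, 4 were higher in TLR and 2 in BCR, and 0 were lower. Their part in these differences was not tested.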

How the data were processed

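Total RNA was sequenced with a stranded kit in 45 libraries (15 groups of 3). The authors deposited log2 values after a variance-stabilising transformation, by the names given to the deposited tables; the submitters' processing notes name DESeq2 1.22.2, RSEM 1.3.0, STAR 2.6.0c, R 3.5.1, FastQC 0.11.8 and Trim Galore 0.6.0 without saying what each did. The 2 tables of 28196 genes share 15 columns with identical values. Inverting the transformation gave normalised reads, whole-read steps and depth. Cnksr3 was left out for a value below the floor of 3.04.

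Groups were compared with limma 3.58.1 (R 4.3.3; trend, two-sided, Benjamini-Hochberg over 19497 genes in the wild type table and 20331 in the table with both genotypes), after requiring a value 1 above the floor in 3 libraries. The fit was tested on simulated data. Differences are on the deposited log2 scale, which understates changes of low genes. GC-rich members are those at or above the members' median GC of 49.7%. Members and lists were chosen with earlier results of these data known. Named were Psmb5, Psmb6, Psmb7 and, in the 6 wild type TLR and BCR steps and each genotype comparison, up to 3 members a direction with the largest difference among those called with groups that did not overlap; other members stand as examples of their role, and the called members of TLR against BCR and of the LPS step to day 7 were named after their values were seen. Same-numbered libraries deviated together in TLR against BCR at day 10 (correlations 0.41, 0.58 and 0.48, from the data and not the labels), and the blocked fit called the same number, 1. Alternatives were other scalings, no filter, GC and length correction, a replicate block, fewer groups, voom, and leaving out libraries.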

Additional observations from a re-analysis of the deposited data

Results flagged for a closer look

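The difference between dEx1A and wild type cells itself differed between day 4 and day 7, tested as an interaction with limma, for 32 of 46 members in TLR (where 49.4% of all genes were called) and for 28 of 46 in BCR (where 33.9% were). Psme4 shifted by -1.87 ± 0.28 log2 (SE) in TLR and -1.21 ± 0.28 in BCR (limma adjusted p = 9.44e-06 and 0.00176). Psmb5 shifted by 2.56 ± 0.62 in TLR and 2.07 ± 0.62 in BCR (limma adjusted p = 0.00111 and 0.0111). The day 4 comparison and the day 7 comparison differ in library depth and in how libraries read GC-rich genes, and with GC content and length corrected the Psmb5 shift in TLR was 0.48 (limma adjusted p = 0.0877).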

How the results depend on the processing

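Counts below are members called by limma at adjusted p below 0.05, as total with higher and lower where the split matters. The share of all genes called also moved with the setting. It follows the counts, except where libraries were left out. With GC content and length corrected, the count was 28 in TLR from day 4 to 7 and 7 from day 7 to 10. In BCR from day 7 to 10 it was 15. For TLR against BCR it was 15 at day 4, 3 at day 7 and 6 at day 10. The shares of all genes were 45.5, 14.7, 28.8, 15.5, 12.0 and 25.4%, in that order. The count was 15 in wild type LPS from day 4 to 7 and 5 for dEx1A against wild type in LPS at day 7. For the day 4 to 7 shift of the genotype difference it was 2 in LPS and 21 in TLR. There the shares were 17.3, 12.0, 9.38 and 41.9%. The replicate block together with that correction gave 28, 6, 14, 15, 3 and 7 for the same wild type comparisons. It gave 15 in LPS from day 4 to 7, and 2 and 20 for the shifts in LPS and TLR. Its shares were 45.9, 15.2, 29.5, 16.0, 12.9, 26.5, 17.5, 9.53 and 42.0%. The replicate block alone gave 1 in LPS from day 4 to 7, where 8.12% of all genes were called. It moved no other count by more than 1.5 times. Same-numbered libraries did not deviate together in every pair in any comparison but TLR against BCR at day 10. No paired analysis was possible for dEx1A against wild type or for LPS day 4 against day 0, because the replicate numbers of those groups belong to different sets of mice.

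Centred on the library median, the count was 1 in TLR and 0 in BCR from day 7 to 10. It was 18 in BCR at day 10 against day 0. For TLR against BCR it was 4 and 0 at days 4 and 10. For dEx1A against wild type in TLR at day 4 it was 15. The shares of all genes were 6.92, 16.1, 54.0, 6.04, 12.3 and 9.58%, in that order. Scaled to the library total, the median of all genes was as low as -1.48 log2 (TLR day 10 against day 0). The count was then 43 (all lower) in TLR from day 4 to 7 and 17 (all lower) from day 7 to 10. In BCR it was 3 (all lower) from day 7 to 10 and 10 at day 10 against day 0. The shares of all genes were 69.7, 41.5, 24.3 and 66.0%. For TLR against BCR the count was 1, 2 and 35 (all lower) at days 4, 7 and 10. Its shares were 5.34, 14.7 and 52.8%. The count was 24 (all lower) in LPS from day 4 to 7, where 19.7% of all genes were called. For dEx1A against wild type in TLR at day 4 it was 1, where 5.66% were. TLR day 10 against day 0 turned from 25 higher and 1 lower to 0 and 38, where 83.5% were called.

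Fitting just the compared groups, and so with fewer residual degrees of freedom, the count was 0 in BCR from day 7 to 10. It was 0 for TLR against BCR at day 10 and 14 in LPS from day 4 to 7. For dEx1A against wild type in TLR at day 4 it was 0, and for the shifts in LPS and BCR 1 and 15. The shares of all genes were 0.979, 0.00589, 23.2, 0.18, 11.4 and 22.0%. Without the filter on low values it was 0 for TLR against BCR at day 10 and 1 in LPS from day 4 to 7. There 9.44 and 5.7% of all genes were called. Voom on recovered reads gave 5 in BCR from day 7 to 10 and 0 for TLR against BCR at day 10. Its shares were 17.5 and 8.64%. Without both BCR day 10 replicates 1 and 2, it was 0 from day 7 to 10, 19 at day 10 against day 0 and 0 for TLR against BCR at day 10; the lone library is then assumed to vary like the other groups. Except as explained by fewer samples or degrees of freedom, the cause was not tested.

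Leaving out 1 library at a time, counts ran from 31 to 35, 11 to 19 and 0 to 1 over the 3 TLR steps, and from 33 to 37, 23 to 31 and 3 to 12 over the BCR steps. They ran from 18 to 24 in TLR and 27 to 35 in BCR at day 10 against day 0, and for TLR against BCR from 1 to 3, 0 to 0 and 0 to 13 at days 4, 7 and 10. In LPS they ran from 40 to 42 at day 4 and 1 to 2 from day 4 to 7. For dEx1A against wild type they ran from 7 to 17 and 0 to 0 in LPS at days 4 and 7, 2 to 14 and 27 to 30 in TLR, and 0 to 0 and 31 to 41 in BCR. For the shifts they ran from 0 to 1 in LPS, 27 to 36 in TLR and 22 to 29 in BCR. The count of 1 arose without TLR day 10 replicate 1, 2 or 3 in the TLR step to day 10, and without wild type LPS day 4 replicate 3 in the LPS shift.

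Of the single-member values, 940 kept direction and side of the threshold, 94 lost the call, 10 gained it and 27 turned. Of the latter 1 was called as reported, Psmc6 for dEx1A against wild type in TLR at day 7, which was 0.52 with the GC and length correction. Psmb6 in TLR from day 7 to 10 was -0.11 scaled to the total, and from day 4 to 7 it ran from -0.63 to 0.03 without single libraries, the latter without TLR day 4 replicate 2. Psmb7 in TLR from day 7 to 10 was 0.01 with the GC and length correction, with or without the block, and 0.14 without TLR day 10 replicate 1. Psmb5 in BCR from day 7 to 10 was -0.04 centred, -0.21 scaled to the total and -0.62 without day 10 replicates 1 and 2, where Psmb6 was -0.24; without single libraries Psmb5 ran from -0.23 (BCR day 10 replicate 1) to 0.58, and was -0.18 without BCR day 7 replicate 1. In BCR from day 4 to 7, Psmb5 ran from -0.69 to 0.05 and Psmb6 from -0.41 to 0.24 without single libraries, and both were above 0 without BCR day 4 replicate 2 or BCR day 7 replicate 1. For dEx1A against wild type, Psmb5 in TLR at day 4 was 0.05 with the GC and length correction, and Psmb6 in LPS at day 7 was 0.01 centred and 0.01 scaled to the total, and above 0 without wild type LPS day 7 replicate 3 (0.02) or dEx1A LPS day 7 replicate 1 (0.07). Psmb5 in LPS at day 7 ran from -0.13 (without dEx1A replicate 2) to 0.17. In BCR at day 4, Psmb5 ran from -0.43 to 0.30 and Psmb6 from -0.20 to 0.44 without single libraries. Psma8 and Psmb11, near the floor, cannot be compared at this depth.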
